A study of Caenorhabditis elegans with 2 samples.

Results

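Of the 19487 genes in the deposited table, 57 encode parts of the machinery that starts transcription by RNA polymerase II (Pol II). They were chosen by symbol alone, as every gene named mdt, taf, rpb, tbp or ttb with a number, together with let-19, dpy-22, sop-3, rgr-1, lin-25, sur-2, cdk-8, cic-1, pqn-38 and tlf-1. The set holds 27 Mediator genes, 18 genes of TFIID, the TBP-like factor gene tlf-1, the TFIIB gene ttb-1 and 10 Pol II subunit genes. No row carries the symbol pqn-38, and whether this is another name of a listed gene was not checked. rpb-6 is not analysed here. The RNA was from worms of strain BW1943, collected as embryos of mixed stages by bleaching, at 25 °C or at 16 °C. Embryos at both temperatures carry gad-1(ct226) and the linked marker dpy-11(e224), and the series title links GAD-1 to pre-mRNA splicing and transcription elongation. There was 1 library at 25 °C and 1 at 16 °C, no replicates, and no embryos without the mutation, so the effect of temperature and that of the allele cannot be told apart.

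Mediator is a large complex that carries signals from DNA-bound transcription factors to Pol II. Its head and middle modules contact the polymerase, its tail contacts many activators, and a detachable kinase module built around CDK-8 and cyclin C limits or redirects its activity. TFIID, made of the TATA-binding protein TBP and its associated factors (TAFs), recognises the core promoter, and TFIIB joins TFIID to the polymerase. In C. elegans the mother loads the embryo with many of these mRNAs, and the embryo's own genome is switched on after the first cleavages.

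Exon reads numbered 17725845 at 25 °C and 21702143 at 16 °C, and intron reads 449772 at 25 °C and 314675 at 16 °C. The mutated gene gad-1 had 2748 exon reads at 25 °C and 3123 at 16 °C; since both groups carry the allele, this checks no label. Of 10 maternal and early embryonic markers, 10 were present, and their summed exon level was 1603 RPM (reads scaled by the library total) at 25 °C and 1516 at 16 °C. Markers of other tissues differed between the libraries. Pharynx markers summed to 44.8 and 594 RPM at 25 °C and 16 °C, with 6 of 6 at least 2-fold lower at 25 °C, and intestine markers to 80.0 and 649, with 6 of the 6 found at least 2-fold lower. Early zygotic markers summed to 101 and 255 RPM at 25 °C and 16 °C, with 6 of 9 at least 2-fold lower. Body wall muscle (2329 and 2692), epidermis (460 and 547) and neuron markers (443 and 486) had sums closer together (RPM at 25 °C first, then 16 °C), with 1 of 6, 0 of 5 and 2 of 5 markers at least 2-fold lower at 25 °C. Yolk protein genes, a sign of adult tissue, had 85 reads at 25 °C and 36 at 16 °C, with vit-4 at 0 in the 16 °C library, and sperm genes had 40 and 22, with gsp-3 at 0 in the 16 °C library. The part of these differences in the results below was not tested, and in whole-embryo RNA fewer cells of a type and less RNA per cell cannot be told apart.

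Introns of the initiation machinery held more reads relative to exons at 25 °C than at 16 °C. For each gene the ratio of intron to exon reads at 25 °C was divided by that at 16 °C, and the 4 counts were compared by a two-sided Fisher exact test with Benjamini-Hochberg adjustment over all genes. This test compares the reads of the 2 libraries and not the temperatures. The ratio rose in 35 of the 57 genes and fell in 0, and 22 were not called. Over all 14972 genes tested, 28.1% rose and 0.614% fell. The test calls more genes where more reads were counted, and 55 of the 57 had at least 1000 combined exon reads. Of these 55 genes 63.6% rose, against 3267 (51%) of the 6404 genes of the table with that many exon reads, a background chosen after seeing the data, in which 0.812% fell. The median log2 ratio of the 57 was 1.05, or 2.07-fold, against 1.06 in all genes tested and 1.04 in the 6404 well-covered genes, those with 1000 or more combined exon reads. It lay above 0 in 53 of 57. Intron reads were 2.68% of all reads of the 57 genes at 25 °C (exact 95% interval 2.59 to 2.77), against 1.51% at 16 °C (1.45 to 1.57). Intervals here and below account for counting error alone and not for spread between collections of embryos. PCR copies are not separate molecules, so the intervals may be too narrow even for counting error.

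**Figure D1:**
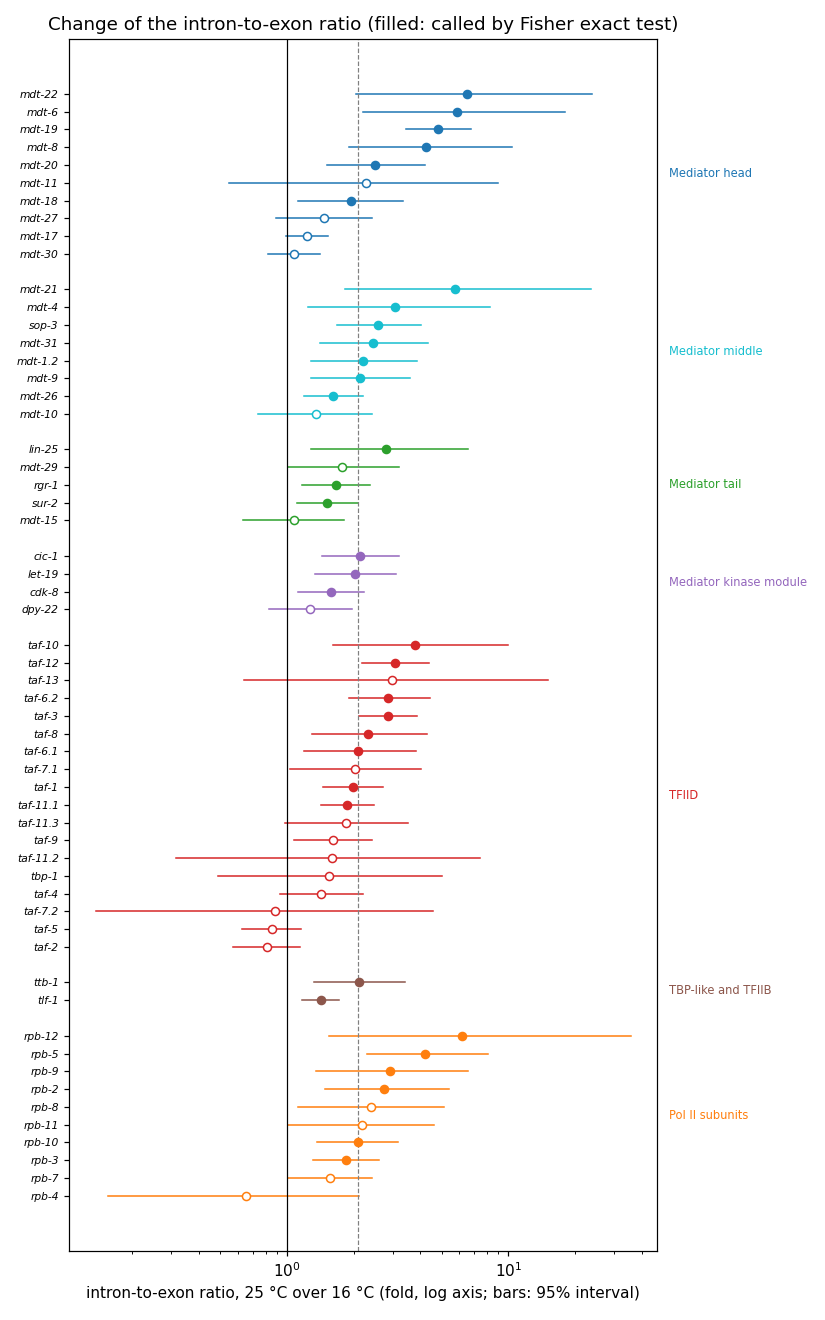
Fold of the intron-to-exon read ratio, 25 °C over 16 °C, for each of the 57 genes on a log axis, grouped by role and ordered by size within each group. Points are ratios of the counts of 1 library each, bars are exact 95% intervals for counting error, filled points rose by Fisher exact test, the solid line marks no difference and the dashed line the median of all genes tested (2.09); 53 of the 57 points lie right of the solid line.

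A higher ratio can come from more intron reads, from fewer exon reads or from both. Of the 57 genes, 51 had more scaled intron reads at 25 °C, 37 had fewer scaled exon reads, and 31 had both. The 35 genes whose ratio rose were chosen by these same counts, so their parts are a description. In 28 of the 35 the 95% interval of the scaled intron fold lay above 1. In the other 7 (mdt-22, mdt-18, mdt-31, mdt-9, rpb-12, rpb-9 and rpb-10) it held 1. mdt-9 had 34 intron reads in each library, a scaled intron fold of 1.21 (0.73 to 2.01), while its scaled exon reads were 1.77-fold lower at 25 °C. Scaled intron reads of the 57 had a median log2 of 0.76, against 0.40 in all genes tested and 0.93 in the well-covered genes. The counts, intervals and medians of scaled reads in this paragraph rest on scaling by library total. With the median-ratio scaling of DESeq2 and the TMM scaling of edgeR, the intron median of the 57 was 1.12 and 1.05. How many of the 7 intervals would then hold 1 was not computed.

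Exon reads of the 57 genes differed less between the libraries, and their direction depends on the scaling. The median log2 of exon reads, 25 °C over 16 °C, was -0.25, or 1.19-fold lower, with 37 genes below 0 and 20 above. It was -0.42 over all genes tested and -0.08 in the well-covered genes. The median-ratio and TMM scalings raise every log2 value by 0.36 and 0.30, and the median of the 57 was then 0.11 and 0.042. The 3 members at least 2-fold lower, mdt-22, mdt-11 and rpb-11, were within 2-fold under both. Differences between members do not depend on the scaling. With 1 library per temperature these folds have no replicate check, and none was tested.

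In the Mediator head, which binds the polymerase, the ratio rose in 6 of 10 genes, and the median log2 was 1.26. Beside this and the counts of the other groups below, 51% of the well-covered genes rose, with a median log2 of 1.04. Differences of the groups from that background were not tested. For mdt-19, the worm MED19 gene (chromosome III, 2598053 to 2603212, plus strand, WBcel235), 149 intron reads stood beside 1672 exon reads at 25 °C, against 51 and 2741 at 16 °C. Its ratio rose 4.79-fold (95% interval 3.44 to 6.76; Fisher exact test, adjusted p = 5.7e-22). The introns of mdt-19 span 3514 bases in the deposited table and 894 in the Ensembl annotation, where exons cover 4266 bases against 881 in the deposited table, so part of its intron reads may fall in what is now annotated as exon. mdt-22 (MED22) had 11 intron and 477 exon reads at 25 °C, against 5 and 1403 at 16 °C, and rose 6.47-fold (2.06 to 23.9). mdt-6, the gene of MED6, had 18 and 706 at 25 °C, against 6 and 1375 at 16 °C, a rise of 5.84-fold (2.21 to 18). Both of these folds rest on few intron reads. mdt-8 (MED8) rose 4.24-fold (1.90 to 10.4), from 25 intron reads at 25 °C against 9 at 16 °C. mdt-20 (MED20) rose 2.51-fold (1.51 to 4.20), with 42 and 30 intron reads at 25 °C and 16 °C. The head genes that were not called include some with many intron reads. mdt-17, the gene of MED17, a scaffold of the head, had 202 intron reads at 25 °C and 158 at 16 °C with a ratio of 1.23 (0.99 to 1.53), and mdt-30 (MED30) had a ratio of 1.08 (0.82 to 1.42). mdt-27 (MED27) had 39 and 33 intron reads with a ratio of 1.46 (0.89 to 2.41), and mdt-11 had 5 and 6.

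Exon reads of the head genes, scaled by library total, were mostly lower at 25 °C. The median log2 was -0.50, and 8 of 10 lay below 0. mdt-22 had 39.5 RPKM (exon reads per kilobase of exon, scaled by the library total) at 25 °C and 95.8 at 16 °C, 2.43-fold lower (95% interval 2.19 to 2.70). mdt-11 (MED11) had 40.4 RPKM at 25 °C and 90.7 at 16 °C, 2.25-fold lower. Of the 57 members 3 were at least 2-fold lower, these and rpb-11, and 0 were at least 2-fold higher. Over the 14313 genes with 10 or more exon reads in either library, 33.6% were at least 2-fold lower and 5.81% at least 2-fold higher, and in the well-covered genes 12.5% and 2.47%. The remaining 54 members lay within 2-fold. mdt-17 stood on the other side of 0, with 72.8 RPKM at 25 °C and 57.8 at 16 °C.

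In the Mediator middle module, the ratio rose in 7 of 8 genes, with a median of 2.30-fold. Of the well-covered genes 51% rose, with a median of 2.06-fold. mdt-21 (MED21), which has 1 intron, had 16 intron and 451 exon reads at 25 °C, against 4 and 647 at 16 °C, and rose 5.74-fold (1.83 to 23.7). mdt-4 (MED4) rose 3.08-fold (1.25 to 8.28), from 17 intron reads at 25 °C against 8 at 16 °C. sop-3, a MED1 gene, had 96 intron and 9392 exon reads at 25 °C, against 29 and 7277 at 16 °C. Its ratio rose 2.56-fold (1.68 to 4.04; Fisher exact test, adjusted p = 3.3e-05) although its scaled exon reads were also 1.56-fold higher (1.52 to 1.61). The other MED1 gene, mdt-1.2, rose 2.19-fold (1.28 to 3.87). mdt-31 (MED31) and mdt-9 (MED9) rose 2.45-fold (1.40 to 4.31) and 2.14-fold (1.28 to 3.58). mdt-26 (MED26) rose 1.62-fold (1.19 to 2.21). mdt-10 (MED10) had 21 and 34 intron reads at 25 °C and 16 °C and was not called (1.35, 0.74 to 2.42). Exon levels in this module went both ways. mdt-9 had 54.3 RPKM at 25 °C and 96.1 at 16 °C, and mdt-10 had 48.0 and 86.6, whereas sop-3 had 106 at 25 °C and 68.0 at 16 °C.

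In the Mediator tail, through which many activators act, the ratio rose in 3 of 5 genes, and the median log2 was 0.72. lin-25 (MED24) and sur-2 (MED23) are known for vulval induction downstream of Ras signalling. lin-25 had 24 intron and 1880 exon reads at 25 °C, against 10 and 2184 at 16 °C, and rose 2.79-fold (1.28 to 6.55). sur-2 rose 1.52-fold (1.11 to 2.10), with 3900 exon reads at 25 °C and 3237 at 16 °C. rgr-1 (MED14), the backbone that joins the modules, rose 1.66-fold (1.17 to 2.36), from 82 intron reads at 25 °C against 58 at 16 °C. mdt-29 (MED29) was not called, with 37 and 21 intron reads at 25 °C and 16 °C and a ratio of 1.78; it had the highest level of the tail at 25 °C, with 71.0 RPKM against 59.1 at 16 °C. mdt-15 (MED15), a regulator of fatty acid metabolism and stress genes in the worm, was not called either. It had 27 intron and 4387 exon reads at 25 °C, against 39 and 6815 at 16 °C, a ratio of 1.08 (0.63 to 1.81). Its exon level was 60.6 RPKM at 25 °C and 77.8 at 16 °C, the one tail gene with a lower level at 25 °C. sur-2 was highest relative to 16 °C in this module, at 1.46-fold (1.39 to 1.53), with 43.6 and 29.9 RPKM at 25 °C and 16 °C.

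Exon reads of the kinase module, scaled by library total, differed little. All 4 genes lay between 1.04-fold and 1.26-fold at 25 °C over 16 °C, with a median log2 of 0.22. With the median-ratio scaling that median was 0.58, so the size of the difference depends on the scaling. let-19 (MED13) had 55.1 RPKM at 25 °C and 43.7 at 16 °C, dpy-22 (MED12) 50.6 and 46.5, cdk-8 35.4 and 34.2, and the cyclin C gene cic-1 37.8 and 30.5. The ratio rose in 3 of the 4. cic-1 had 92 intron reads at 25 °C and 42 at 16 °C, and rose 2.14-fold (1.45 to 3.20). let-19 had 76 and 36 and rose 2.03-fold (1.34 to 3.10). cdk-8 had 89 and 66 and rose 1.58-fold (1.12 to 2.22). dpy-22 had 49 intron reads at 25 °C and 43 at 16 °C and was not called (1.27, 0.83 to 1.96). Whether dpy-22 differs from let-19 was not tested.

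**Figure D2:**
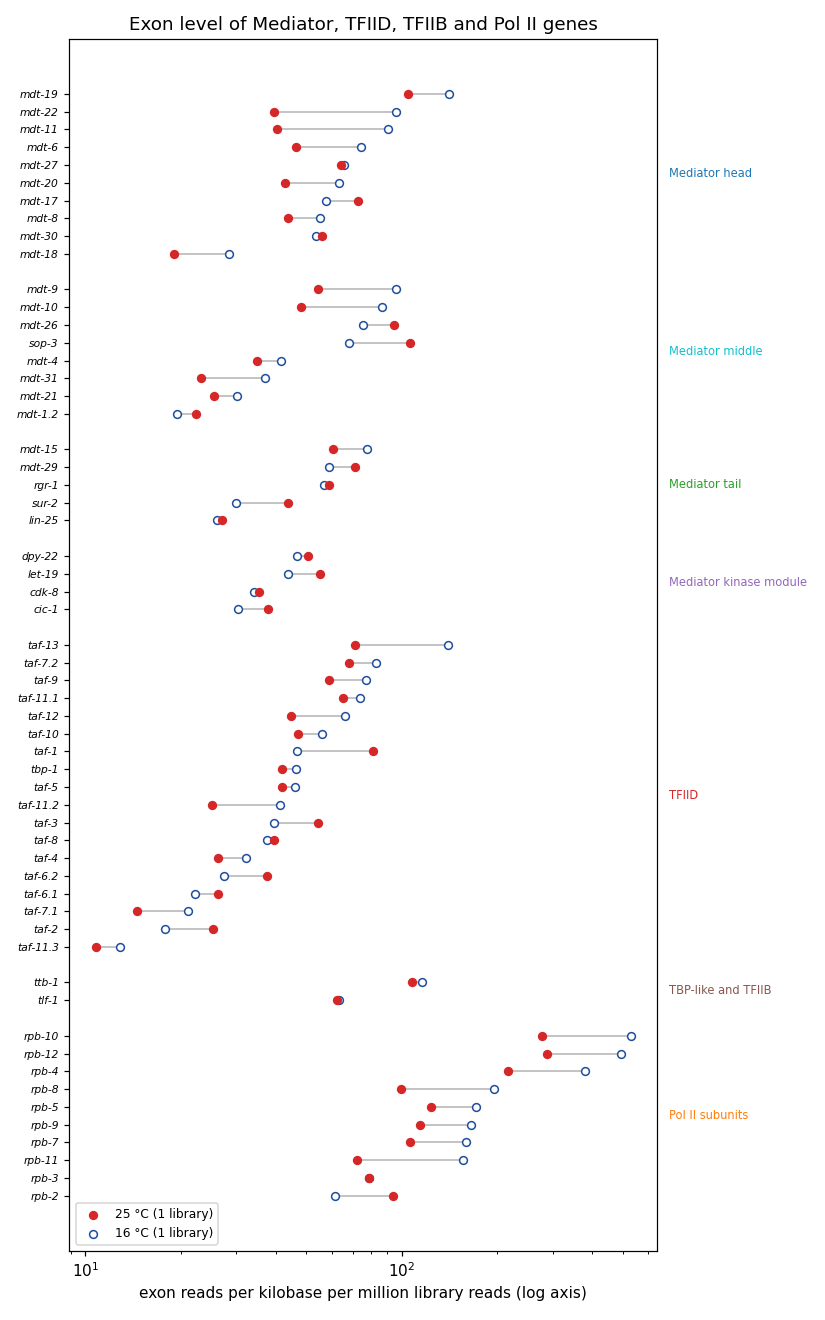
Exon level in RPKM (log axis) of each of the 57 genes, grouped by role and ordered by the 16 °C level, with 25 °C in filled red and 16 °C in open blue; there is 1 library per temperature and no error bar. With this scaling by library total, all points of the Pol II group but those of rpb-2 and rpb-3 are lower at 25 °C, and in the kinase module all 4 are slightly higher.

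In TFIID the ratio rose in 8 of 18 genes, 0 fell, and 10 were not called, with a median log2 of 0.94. taf-3 (X, 16332435 to 16346028, plus strand), whose human counterpart reads a histone mark of active promoters, had 199 intron and 3441 exon reads at 25 °C, against 61 and 3008 at 16 °C. Its ratio rose 2.85-fold (2.12 to 3.88; Fisher exact test, adjusted p = 2.9e-12). taf-12 (III, 11862385 to 11869281, minus strand), a histone-fold subunit, had 101 intron and 910 exon reads at 25 °C, against 59 and 1639 at 16 °C, and rose 3.08-fold (2.19 to 4.37). taf-10, another histone-fold subunit, rose 3.80-fold (1.60 to 9.95), from 21 intron reads at 25 °C against 8 at 16 °C. taf-8 rose 2.31-fold (1.29 to 4.27). taf-1, the largest subunit and the scaffold of the complex, had 165 intron and 8091 exon reads at 25 °C, against 58 and 5628 at 16 °C, and rose 1.98-fold (1.46 to 2.72). In 3 TFIID genes the ratio was below 1, and none of these was called. taf-2, which contacts the initiator element in other species, had 71 intron reads at 25 °C and 75 at 16 °C (0.81, 0.57 to 1.14), and 591 of its intron bases lie under exons of noncoding genes. taf-5, a WD-repeat subunit, had a ratio of 0.85 (0.62 to 1.16). taf-7.2 had 3 and 5 intron reads at 25 °C and 16 °C. Within TFIID, the intervals of taf-2 and taf-5 end below the median of 2.09-fold over all genes tested. Outside it, so do those of mdt-17, mdt-30, mdt-15, dpy-22 and tlf-1, of which tlf-1 was called as a rise. taf-4, which is needed for much of embryonic transcription in the worm, was not called, with 47 intron reads at 25 °C against 49 at 16 °C (1.43, 0.93 to 2.19). The TBP gene tbp-1 had 8 and 7 intron reads, and its interval spans a large range (1.54, 0.49 to 5.01). taf-9 had 54 and 53 intron reads (1.61, 1.08 to 2.42), and taf-13 had 5 and 4.

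Exon levels of TFIID genes went both ways. taf-1 was furthest up of the 57 genes, with 81.0 RPKM at 25 °C and 46.5 at 16 °C, 1.74-fold (1.68 to 1.80). taf-2 had 25.2 and 17.8, taf-3 had 54.5 and 39.3, and taf-6.2 had 37.4 and 27.5 at 25 °C and 16 °C. The small histone-fold gene taf-13 was furthest down in TFIID, with 71.1 at 25 °C and 140 at 16 °C, 1.97-fold lower. tbp-1 had 41.7 at 25 °C and 46.5 at 16 °C. Over TFIID the median log2 of exon reads was -0.22, with 12 of 18 below 0, and it was 0.14 with the median-ratio scaling.

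Several members are paralogs; where similar copies share reads, their separate levels are uncertain. taf-6.2 and taf-6.1 had 37.4 and 26.2 RPKM at 25 °C, and 27.5 and 22.2 at 16 °C. Both ratios rose, taf-6.2 by 2.86-fold (1.90 to 4.43), from 103 intron reads at 25 °C against 32 at 16 °C, and taf-6.1 by 2.10-fold (1.19 to 3.82). taf-7.2 was the more abundant copy of its pair by RPKM, 4.66-fold over taf-7.1 at 25 °C and 3.93-fold at 16 °C. Deposited exon lengths are 948 bases for taf-7.2 and 1267 for taf-7.1, against 1568 and 907 in the reference annotation. With the annotated lengths the lead of taf-7.2 would be smaller at both temperatures. taf-7.1 had 22 intron reads at 25 °C and 19 at 16 °C and was not called (2.03, 1.03 to 4.02). Of the 3 taf-11 genes, taf-11.1 led, with 65.3 RPKM at 25 °C and 73.9 at 16 °C. taf-11.2 had 25.1 and 41.1, and taf-11.3 had 10.8 and 12.9, the lowest level of the 57 at either temperature. taf-11.1 was the one called, with 139 intron reads at 25 °C against 102 at 16 °C and a rise of 1.87-fold (1.42 to 2.46). taf-11.3 had 28 and 22 intron reads (1.84, 0.97 to 3.51), a similar ratio from fewer reads.

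Both single-gene factors rose in ratio. For ttb-1, which encodes TFIIB, 52 intron and 2433 exon reads at 25 °C, against 32 and 3159 at 16 °C, gave a 2.11-fold rise (1.33 to 3.40). In the reference annotation 1774 intron bases of ttb-1 lie under exons of cfap-36 on the opposite strand. The introns of ttb-1 span 5599 bases in the deposited table and 8554 in the annotation. Whether the overlapped bases were counted is therefore not known. If they were, some of these reads may belong to cfap-36. tlf-1, a TBP-like factor that the early embryo needs to express part of its genome, had the most intron reads of the 57, 256 at 25 °C and 221 at 16 °C. It rose 1.42-fold (1.17 to 1.72). Exon levels were 108 and 116 RPKM for ttb-1 and 62.5 and 63.3 for tlf-1 at 25 °C and 16 °C. tlf-1 and cdk-8 are neighbours on chromosome I, 492 bases apart in WBcel235 on opposite strands.

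Among Pol II subunit genes the ratio rose in 6 of 10, 0 fell, and the median log2 was 1.19. rpb-5, a subunit shared with the other nuclear polymerases, had 40 intron and 1937 exon reads at 25 °C, against 16 and 3255 at 16 °C, and rose 4.20-fold (2.29 to 8.06; Fisher exact test, adjusted p = 6.0e-06). rpb-12, a small shared subunit, had 9 intron reads at 25 °C and 3 at 16 °C, and its 6.2-fold rise has an interval of 1.54 to 35.6. rpb-9, a subunit linked to accurate initiation in yeast, rose 2.92-fold (1.36 to 6.58). rpb-2, which forms the catalytic core together with the largest subunit AMA-1, had 48 intron and 6741 exon reads at 25 °C, against 14 and 5379 at 16 °C, and rose 2.74-fold (1.48 to 5.38). rpb-10 had 47 intron and 1734 exon reads at 25 °C, against 52 and 3995 at 16 °C. It rose 2.08-fold (1.37 to 3.16), while its intron reads scaled by library total differed by 1.09-fold (0.72 to 1.66). rpb-3, which starts polymerase assembly with rpb-11, rose 1.84-fold (1.30 to 2.61) with 91 and 60 intron reads at 25 °C and 16 °C. rpb-8, rpb-11 and rpb-7 had ratios of 2.40, 2.18 and 1.57 that were not called. The ratio of rpb-4, which forms the stalk with rpb-7, was 0.65 (0.16 to 2.12), from 4 intron reads at 25 °C and 13 at 16 °C.

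Exon levels of the Pol II subunits lay closer together at 25 °C than at 16 °C. rpb-2 had 93.7 RPKM at 25 °C and 61.7 at 16 °C, 1.52-fold higher (1.46 to 1.57). Scaled by library total, the other 9 subunit genes were lower at 25 °C, with a median 1.70-fold lower, though rpb-3 was level at 78.5 and 78.6. With the median-ratio scaling the median log2 of all 10 subunit genes went from -0.68 to -0.32, and rpb-3 was 1.28-fold higher. Well-covered genes with under 1000 exon bases had a median 1.60-fold lower by library total. rpb-11 was 2.16-fold lower, with 72.3 at 25 °C and 156 at 16 °C. rpb-8 was 1.98-fold lower, with 99.3 at 25 °C and 196 at 16 °C. The most abundant subunit genes per kilobase were rpb-12 with 288 at 25 °C and 492 at 16 °C, rpb-10 with 278 and 529, and rpb-4 with 217 and 381. rpb-10 stood 2.97-fold above rpb-2 at 25 °C and 8.57-fold above it at 16 °C. With ama-1, which encodes the largest subunit and was not in the set, 11 Pol II genes spanned 3.99-fold at 25 °C and 8.57-fold at 16 °C. ama-1 itself had 254 at 25 °C and 125 at 16 °C.

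Exon change went with the length of the transcript across the 57 genes. Of the 21 members with under 1000 bases of summed exon, 0 had a log2 exon change above 0, and their median was -0.71. Of the 18 with 1000 to 2000 bases, 6 lay above 0 (median -0.06), and of the 18 with over 2000 bases, 14 did (median 0.33). These counts and medians hold for scaling by library total, since the median-ratio and TMM scalings raise every log2 value by 0.36 and 0.30. Under them some members with under 1000 bases lay above 0, such as mdt-21 at 1.08-fold and 1.04-fold. The order of the genes by exon change does not depend on the scaling. Spearman's rho between exon length and log2 exon change was 0.83 over the 57 genes, all measured in the same 2 libraries. The large subunits taf-1, rpb-2, sop-3 and sur-2 stood at the top, and the small subunits mdt-22, mdt-11, rpb-11, rpb-8 and taf-13 at the bottom. Of the longest class, mdt-18, mdt-15, taf-4 and taf-5 lay below 0, at -0.58, -0.36, -0.30 and -0.13. The whole table shows the same order, with rho 0.45 over the 6404 well-covered genes. Their median log2 was -0.68 under 1000 bases, -0.15 from 1000 to 2000 and 0.17 above 2000. The length classes were chosen after seeing the data. With the exon lengths of the reference annotation, also tried after seeing the data, 10 members fell in another class, the medians from short to long were -0.68, -0.16 and 0.33, and rho was 0.81. The part of transcript length in the exon differences between subunits was not tested. Between intron length and the log2 intron-to-exon ratio rho was -0.23 over the 57 genes and -0.11 over the 6404.

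**Figure D3:**
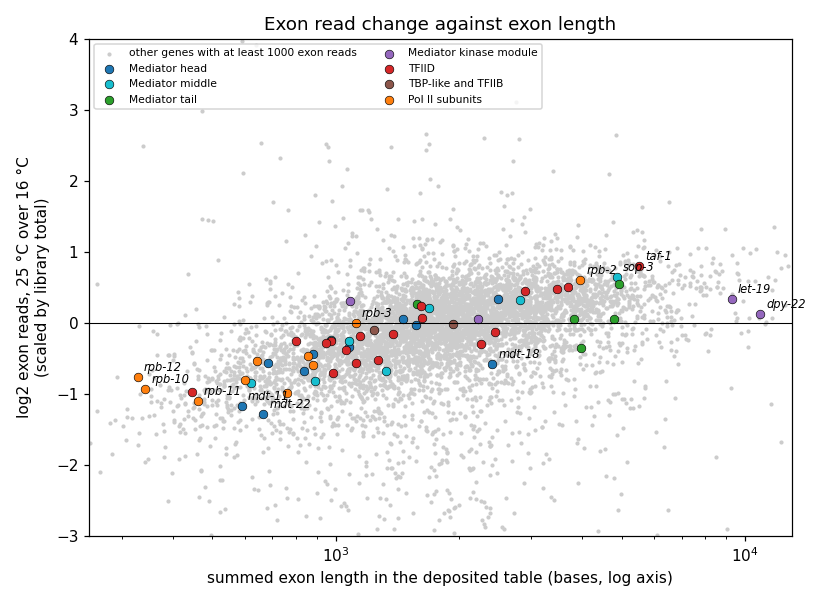
Log2 exon reads, 25 °C over 16 °C, scaled by library total, against summed exon length in bases (log axis) for the 57 genes in colour by role and for the other well-covered genes in grey, of which 184 of 6349 lie outside the plotted range of change and 27 outside that of length. Every coloured point under 1000 bases lies below 0, and 14 of the 18 above 2000 bases lie above it.

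Depth of intron reads per base, as a percentage of the depth in exons of the same gene, gives a level for each gene that rests on its deposited lengths. Where these lie far from the annotation, as for mdt-19 and mdt-31, the order between genes is uncertain. The median of this percentage over the 57 was 4.29% at 25 °C and 1.72% at 16 °C. It was above 5% in 23 genes at 25 °C and in 14 at 16 °C. mdt-18 (MED18), whose ratio rose 1.94-fold (1.12 to 3.36), was highest at both temperatures, with 43.5% at 25 °C and 22.4% at 16 °C. mdt-31 had 26.5% at 25 °C and 10.8% at 16 °C. Exons of 2 other protein-coding genes lie within the span of each, dbr-1 and uri-1 for mdt-18 and snpc-4 and spd-2 for mdt-31. Since 0 intron bases of either lie under them, the overlap falls on exons of mdt-18 and mdt-31. dbr-1 and snpc-4 are on the same strand as the member they overlap. How reads in shared exon bases were counted is not known, so the depth percentages of both members are uncertain. Of the members with no overlapping gene, taf-11.3 was highest at 25 °C (29.3%, against 15.9% at 16 °C), followed by taf-11.1 (22.8% and 12.2%), rpb-5 (19.7% and 4.69%), rpb-3 (18.4% and 9.99%) and rpb-10 (18.2% and 8.75%). rpb-5 and rpb-10 have 90 and 51 bases of intron in all, so each read weighs much in their values. The lowest at 25 °C was taf-7.2, with 0.21% at 25 °C and 0.24% at 16 °C. taf-1, with 20499 intron bases, had 0.55% and 0.28%.

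**Figure D4:**
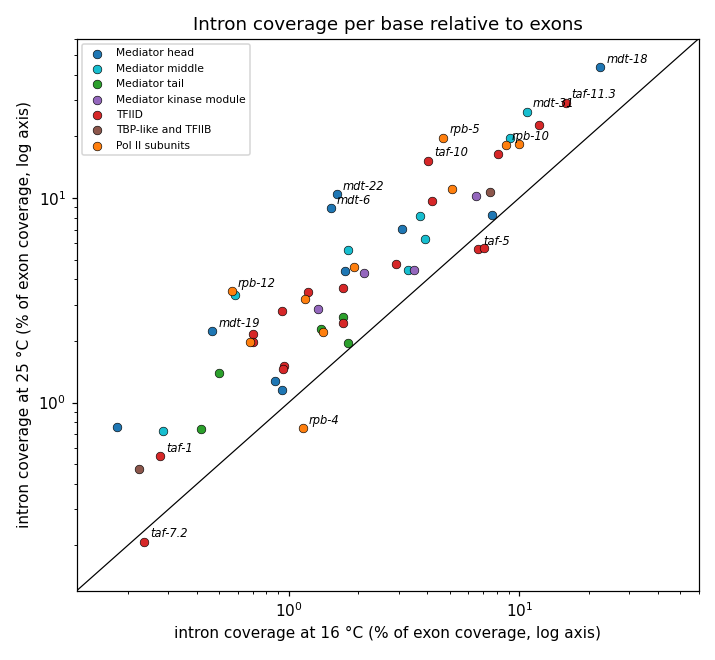
Intron reads per intron base as a percentage of exon reads per exon base, at 25 °C (vertical, log axis) against 16 °C (horizontal, log axis), for the 57 genes in colour by role; each point is 1 gene in 1 library per temperature and the line marks equal values. All but 4 points lie above the line, and taf-2, taf-5, taf-7.2 and rpb-4 lie below it.

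In the reference annotation the spans of 25 of the 57 hold exons of another gene on either strand, piRNA genes left out, and of 20 those of a protein-coding one. The ratio rose in 16 of these 25 and in 19 of the 32 with no overlap (median log2 1.12 without overlap). Among the called members besides ttb-1, lin-25, sop-3, rgr-1, mdt-4 and mdt-8 have 631, 458, 390, 272 and 234 intron bases under exons of other genes. mdt-19, mdt-20 and cic-1 have 111, 53 and 50 such bases under exons of noncoding genes. Each of these genes, ttb-1 included, has a deposited intron length unlike that of the annotation, shorter in all but mdt-19. Whether the deposited counts include these bases is therefore not known. If they do, reads in them cannot be assigned with certainty. The deposited intron length equalled that of the reference annotation in 42 of the 57 genes, of which 24 rose, with a median log2 of 0.99. The deposited exon length equalled it in 9 of the 57. RPKM and depth percentages rest on the deposited lengths, and for some genes these lie far from the annotation: mdt-31 has 1329 exon bases in the deposited table and 595 in the annotation, taf-7.2 has 948 and 1568, and mdt-21 has 972 and 1475. Folds between the libraries do not depend on the length. In the authors' deposited table, 5 of the 57 passed its adjusted p of 0.01, mdt-19, taf-3, taf-12, taf-6.2 and rpb-5, against 5.57% of all genes in the authors' deposited table. The deposited values rest on the same counts of the same 2 libraries, so they are no separate check on the calls here.

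Of 17 other genes of Pol II initiation, ama-1 and those of TFIIA, TFIIE, TFIIF and TFIIH, the ratio rose in 11 and fell in 0, with a median log2 of 0.97. Of the well-covered genes 51% rose and 0.812% fell, with a median log2 of 1.04. Listed under TFIIA, gtf-2A2 and pqn-51 rose 4.38-fold (2.39 to 8.29) and 3.62-fold (2.14 to 6.35), and gtf-2F2 of TFIIF rose 3.27-fold (2.40 to 4.50). ama-1 had 241 intron reads at 25 °C and 44 at 16 °C and rose 3.27-fold (2.36 to 4.62). In TFIIH, which opens the DNA and phosphorylates the polymerase tail, the helicase genes xpb-1 and xpd-1 rose 2.78-fold (1.74 to 4.58) and 2.46-fold (1.79 to 3.42), and the kinase gene cdk-7 rose 1.97-fold (1.47 to 2.66). Its cyclin gene cyh-1 was not called, with 100 intron reads at 25 °C against 78 at 16 °C (1.03, 0.75 to 1.42). Both TFIIE genes, gtf-2E1 and gtf-2E2, were not called, with ratios of 1.23 (0.72 to 2.13) and 0.74 (0.42 to 1.25). The exon level of ama-1 was 2.03-fold higher at 25 °C (1.99 to 2.07), and that of the small TFIIH gene gtf-2H5 was 2.51-fold lower, with 101 and 252 RPKM at 25 °C and 16 °C.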

How the data were processed

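For 1 stranded mRNA library per temperature, the submitters' processing notes name Trimmomatic, TopHat2 and HTSeq. No genome build, annotation or strand setting was given in these sources. The deposited values are counts of exon and intron reads per gene, not normalized, per the file headers. Columns marked Exp belong to 25 °C and those marked Con to 16 °C, as the labels carry these marks. The fold in the authors' deposited table is a ratio, the intron-to-exon ratio at 25 °C over 16 °C, and its p-value and adjusted p are the authors' deposited ones. The summed exon and intron lengths are also deposited.

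The 4 counts of each gene were compared by two-sided Fisher exact test, with Benjamini-Hochberg adjustment over the 14972 genes with at least 10 combined reads and a threshold of 0.05. Medians used log2 ratios with 0.5 reads added to each count; folds of single genes are ratios of counts. Each library was scaled by the sum of its exon and intron reads. With 1 library per group there is no replicate check, edgeR and DESeq2 have no residual degrees of freedom for a test, and they gave scaling factors only. In counts simulated for this comparison (14972 genes), 24 of 100 genes with a 2-fold change were called, 80 of 100 with a 4-fold change, and 3 of 14772 without one; the changed genes had at least 20 combined intron reads. Few genes were changed in the simulation, whereas in the data 4200 genes rose and 92 fell. With Benjamini-Hochberg adjustment, a call in the simulation therefore needed a lower p-value than a call in the data. The shares called in the simulation do not carry over to the 57 genes. A gene not called may still differ 2-fold where its interval reaches past 2, as for taf-4 (1.43, 0.93 to 2.19). The rule for named genes took, per role, up to 5 called members by fold with at least 10 combined intron reads, up to 4 members past 2-fold in exon reads each way, the member with the highest RPKM, the paralogs and gad-1; other members were named after their values were seen. The members and lists were chosen with earlier results of these data known. Module assignments of metazoan Mediator subunits follow the human complex and vary between sources for some. Positions and overlaps come from the Ensembl annotation of WBcel235 by gene identifier, matched for 57 of 57. Introns counted there are gaps left between merged exons. Alternatives covered the scaling, added reads, minimums, thresholds and overlapping genes. Python 3.11.15, SciPy 1.17.1, edgeR 4.0.16 and DESeq2 1.42.0 were used.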

Additional observations from a re-analysis of the deposited data

How the results depend on the processing

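The median log2 intron-to-exon ratio of the 57 genes, 1.05 or 2.07-fold, kept its direction under every alternative run and lay between 0.99 and 1.12 on the log2 scale. The number that rose, 35, was 34 to 36 under other minimums of reads, 24 among members with equal intron length in the reference annotation (a choice made after seeing the data), 19 without members that overlap another gene and 5 with a Bonferroni adjustment at 0.01, under which 30 members lost their call; the last 3 settings remove genes or raise the threshold. With a minimum of 20 combined intron reads, rpb-8 (adjusted p = 0.034) and taf-9 (adjusted p = 0.030, Fisher exact test) were also called, while mdt-22 and rpb-12, with 16 and 12 combined intron reads, were no longer tested, so the count stayed at 35. Exon medians depend on the scaling. The median ratio of DESeq2 raised all log2 values by 0.36, and TMM of edgeR by 0.30. The median log2 exon change of the 57 genes, -0.25 and 0.16 above that of all genes (-0.42), reversed to 0.11 and 0.042 under these scalings. Medians of the Mediator middle module, of TFIID and of tlf-1 with ttb-1 reversed to 0.11, 0.14 and 0.30 with the median ratio. That of the kinase module went from 0.22 to 0.58. Members at least 2-fold lower numbered 3, and 0 with either scaling, while 0 at least 2-fold higher became 2 with the median ratio and 1 with TMM. At 1.5-fold, 14 were lower and 3 higher. Orders between genes do not depend on the scaling. Low intron counts limit 8 members with under 20 combined intron reads, of which 2 were called. Leaving out a replicate could not be run. No paired analysis was possible because each temperature has a single library without a replicate number.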

Other observations

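mdt-28 carries no symbol in the deposited table and is named in the current gene names, so it stood outside the 57 genes. It had 31 intron and 1436 exon reads at 25 °C, against 17 and 1850 at 16 °C. Its ratio was 2.35-fold higher (1.25 to 4.54; Fisher exact test, adjusted p = 0.021), and its exon level was 84.6 RPKM at 25 °C and 90.0 at 16 °C.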
